A study of Mus musculus with 6 samples.

Results

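Motile flagella and cilia share a core called the axoneme, a ring of microtubule doublets around a central pair, and the genes described here encode its moving and regulating parts. They were chosen by name, as every gene symbol made of Dnah, Dnai or Dnaic, Rsph, Tekt, Drc or Cfap followed by a number, which gave 64 of the 25771 measured genes. Of these, 33 are dynein, radial spoke, nexin-dynein regulatory complex or tektin genes, and 31 carry the wider name Cfap (cilia and flagella associated protein), so the set reaches beyond dyneins, spokes and tektins. The rule uses the symbols alone, but it was chosen with earlier results of these data known.

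The study profiled single cells of testes from adult C57BL6 mice of 2 genotypes, named NONO and NONO deltaER, with the 10x Genomics 3′ method, which counts captured transcripts by a unique molecular identifier (UMI). NONO is a nuclear RNA-binding and DNA-binding protein. The labels do not say what the deltaER alteration changes in the gene, and no agent or other allele is named for either genotype. The deposited cell table calls 3 libraries WT (TA, TB and TC), read here as the NONO mice, and 3 libraries KI (TD, TE and TF), read here as the NONO deltaER mice. This reading is an inference from the names. The labels do not state whether each library is a different mouse, so every p-value measures only the spread between libraries, which may be technical.

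Dyneins are motors that stand on one doublet and walk along the next, which makes the axoneme bend. Each outer or inner arm is built on giant heavy chains, and the outer arm also carries intermediate chains. Radial spokes reach from the doublets to the central pair and pass signals to the inner arms, the nexin-dynein regulatory complex ties neighbouring doublets together, and tektins are filament proteins bound to the doublet wall. In the testis the sperm tail axoneme is assembled in round spermatids, the haploid cells that follow the meiotic divisions of spermatocytes.

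Sequences just before the gene starts are shown first because members that share a timetable can be compared for shared letters there. A RefSeq table of promoter windows (GRCm38.p6, 250 bases before to 50 after each start) held 53 of the 64 members and 27025 genes in all. The X-box, the motif bound by RFX factors, is GTTNCC followed after NN by GGNAAC. It was searched on both strands with up to 2 mismatches among its 10 fixed letters. It was found in 27 of the 53 members (50.9%) and in 15.8% of all genes in the table. With up to 1 mismatch the shares were 13.2% and 2.89%. The 7 members in that stricter class have these best sites, where capitals mark fixed letters that match:
Cfap298, chr16:90935024-90935037, minus strand: GTTgCCcgGGcAAC
Cfap206, chr4:34730216-34730229, minus strand: GTTtCCacGGttAC
Cfap44, chr16:44394772-44394785, plus strand: GTTgCtatGGcAAC
Cfap45, chr1:172521111-172521124, plus strand: GTTgCtatGGtAAC
Cfap61, chr2:145934776-145934789, plus strand: GTTtCCttaGcAAC
Drc1, chr5:30281374-30281387, plus strand: tTTcCCttGGcAAC
Tekt4, chr17:25471430-25471443, plus strand: GTgtCCtgGGaAAC

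The matches were not spread evenly over the parts of the axoneme. All 6 doublet lumen Cfap genes with a window, all 3 Drc genes and both intermediate chain genes held a match, whereas 2 of 14 dynein heavy chains (14.3%) and 1 of 5 central apparatus Cfap genes did. The heavy chain share lay at the level of all genes. In 18 of the 27 members the best match began between 60 bases before and 20 bases after the gene start. The letters CAACTG, the core of the MYB motif, were in 30.2% of the members and 15.4% of all genes, TATAAA in 3.77% and 15.7%, and the cyclic AMP response element TGACGTCA in 1.89% and 2.03%. The members' windows were also somewhat richer in G and C (median 56.3% against 52.8%). The letters CG in a row occurred a median of 12.5 times per window in the members and 7.0 times over all genes. No test was made, and a match does not show that a factor binds.

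The 250 bases before the start follow for 4 members whose values are given below, Cfap206, Drc1 and Tekt4 with X-box matches in capitals and Dnah8, the heavy chain of highest level, with CAACTG in capitals. All run in the direction of the gene.
Cfap206, chr4:34730207-34730456, minus strand: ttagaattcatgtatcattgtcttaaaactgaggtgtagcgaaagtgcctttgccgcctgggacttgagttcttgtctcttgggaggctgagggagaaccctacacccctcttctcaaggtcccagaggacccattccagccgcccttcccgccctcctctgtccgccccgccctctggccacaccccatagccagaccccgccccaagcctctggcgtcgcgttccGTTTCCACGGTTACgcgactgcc
Drc1, chr5:30281143-30281392, plus strand: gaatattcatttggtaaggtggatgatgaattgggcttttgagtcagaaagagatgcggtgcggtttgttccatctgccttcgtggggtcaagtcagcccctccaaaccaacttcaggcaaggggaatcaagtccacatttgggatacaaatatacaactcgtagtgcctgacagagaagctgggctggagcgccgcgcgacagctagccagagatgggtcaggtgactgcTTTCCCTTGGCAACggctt
Tekt4, chr17:25471340-25471589, plus strand: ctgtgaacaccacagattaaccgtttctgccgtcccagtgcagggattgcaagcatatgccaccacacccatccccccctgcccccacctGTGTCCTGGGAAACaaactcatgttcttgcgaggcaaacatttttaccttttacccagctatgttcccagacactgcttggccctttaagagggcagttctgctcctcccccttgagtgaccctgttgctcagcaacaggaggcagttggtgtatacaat
Dnah8, chr17:30626686-30626935, plus strand: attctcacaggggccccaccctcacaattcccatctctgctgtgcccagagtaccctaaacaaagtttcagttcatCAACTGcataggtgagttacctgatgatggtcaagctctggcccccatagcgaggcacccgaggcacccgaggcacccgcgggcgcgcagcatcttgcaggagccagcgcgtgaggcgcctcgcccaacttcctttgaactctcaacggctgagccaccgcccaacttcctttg

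GENCODE M21 (GRCm38) placed 62 of the 64 genes on 17 chromosomes, with none on the X chromosome and 9 on chromosome 11. The members span a median of 57.8 kb, against 17.2 kb over all 25127 placed genes. The 15 dynein heavy chain genes are long, with a median span of 239 kb, while the 5 tektin genes have a median of 22 kb. GENCODE starts Tekt4 at chr17:25454615 and Dnah8 at chr17:30624354. The RefSeq windows printed above for these genes therefore lie inside them as GENCODE places them. The X-box sites listed for Cfap45 and Cfap298 also lie inside these genes, which GENCODE starts at chr1:172520801 and chr16:90935114.

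The 6 libraries held 6261 to 8909 cells and 81042216 to 110018960 UMI each, and 28 to 60 cell barcodes were shared between any pair of libraries (at most 0.741% of the smaller library). Classes are the authors' deposited ones, 12 of germ cells and 5 of other or unknown cells. The libraries part into 2 sets that cross the genotypes: TA, TB and TF had 0.463 to 0.507% mitochondrial UMI per cell on average, and TC, TD and TE 0.226 to 0.342%. The 4 markers of undifferentiated spermatogonia summed to 550 to 891 CPM in that class and 5.47 to 13.3 CPM in preleptotene spermatocytes. Late spermatocyte markers had their highest sum in the leptotene to early pachytene class, and round spermatid markers at steps 4-5.

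Levels are given as CPM, the UMI of a gene per 1000000 UMI of its library and class. Because each transcript is tagged once near its 3′ end, these levels are not divided by gene length. The classes were made from these same cells and genes, so differences between classes are described without a test. The onset of a gene is the first germ cell class with at least 25% of its highest mean level.

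The axoneme genes together held 22356 ± 402 CPM (SD, n = 6) in the class of leptotene to early pachytene spermatocytes, against 3550 ± 312 CPM in preleptotene spermatocytes just before it. Their sum was highest in the next class, deposited as IPac/eDip SC, at 28072 ± 553 CPM. It was still 25644 ± 495 CPM in round spermatids of step 3 and 18384 ± 525 CPM at steps 4-5, and then 9440 ± 390 CPM at steps 5-6, 2692 ± 80.2 CPM at steps 6-7 and 1491 ± 68.7 CPM in elongated spermatids. The main block of axoneme transcripts therefore lay in meiotic and early round spermatid classes in all 6 libraries.

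Of the 64 members, 63 reached 10 CPM in a germ cell class, and 40 of these (63.5%) had their onset in the 2 spermatocyte classes after preleptotene, 36 of them in the leptotene to early pachytene class. Over all 13513 genes with 10 CPM, 11.6% had an onset there and 72.0% before. Another 15 members began before leptotene, 2 in the class named step 1-2 (which the authors' broad annotation counts with spermatocytes) and 6 in spermatids of step 3 or later. Other axoneme and dynein assembly genes, a list of 60 of which 55 could be placed, behaved alike in this count, with 42 onsets in spermatocytes. Outer dense fibre and fibrous sheath genes, which encode the tail structures around the axoneme, had 3 onsets in spermatocytes and 9 in spermatids among 12 genes.

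**Figure D1:**
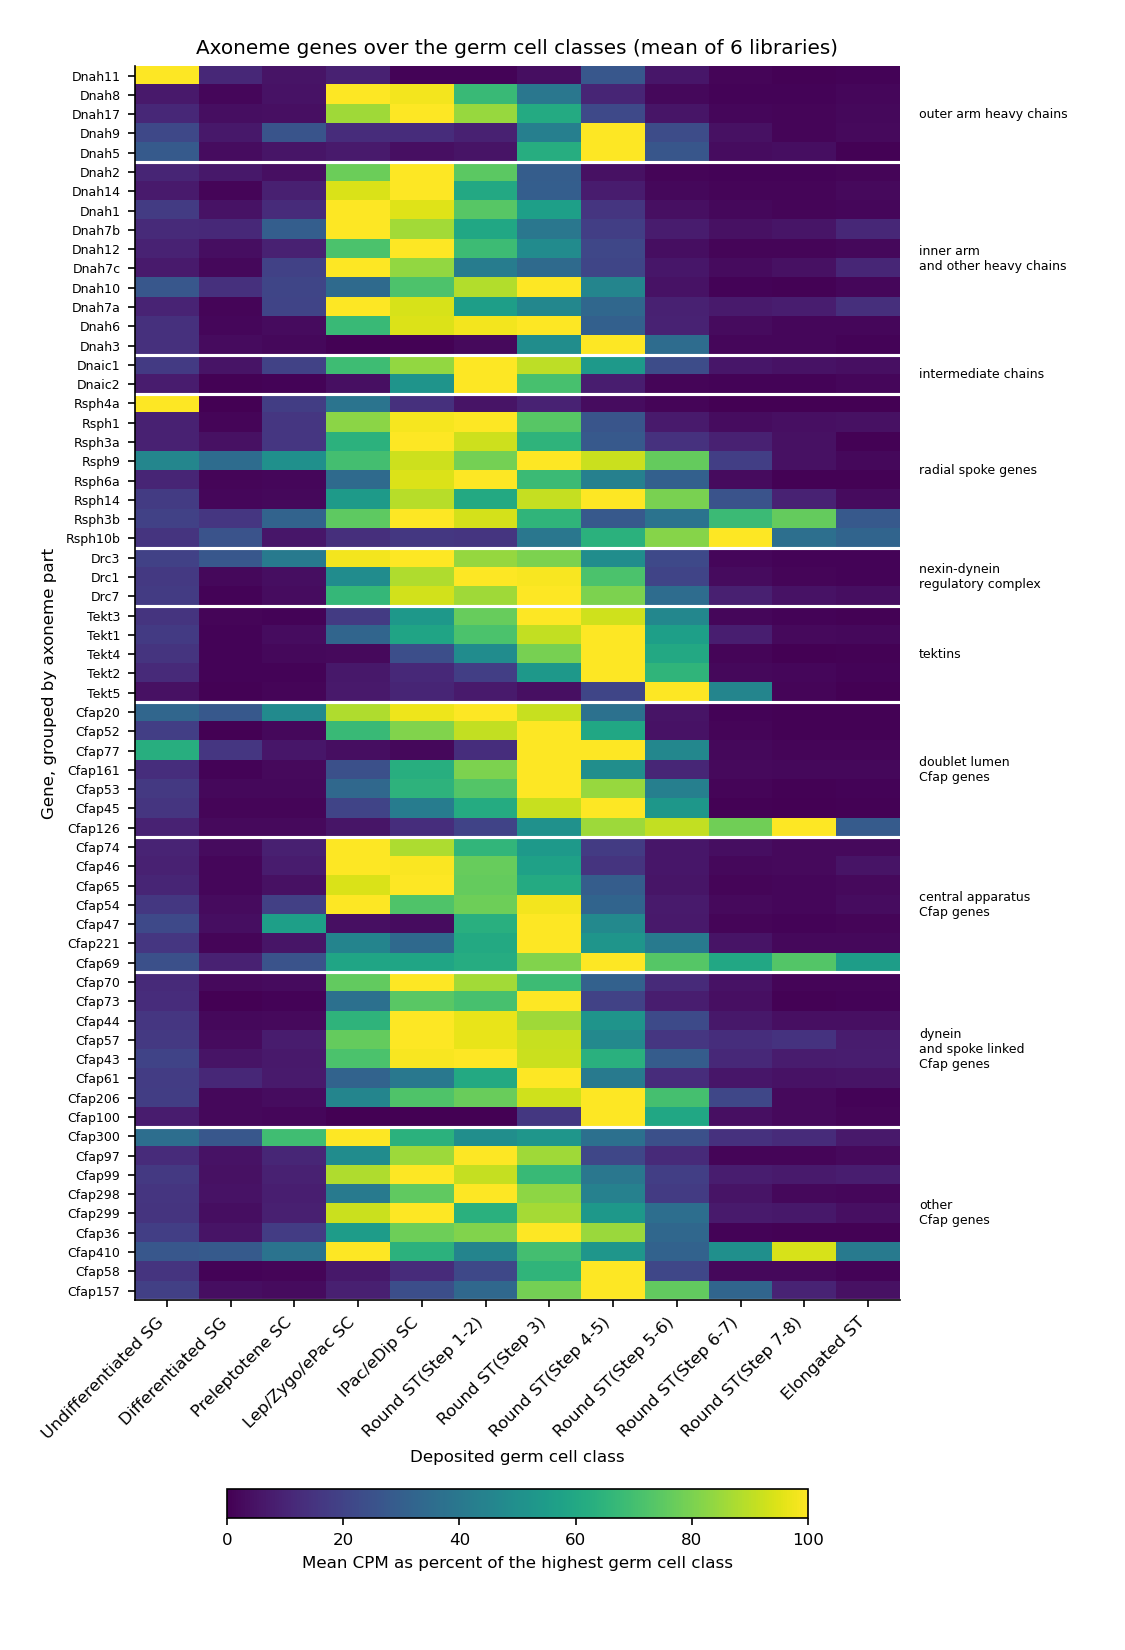
Level of each axoneme gene (rows, grouped by axoneme part) in the 12 deposited germ cell classes (columns), as percent of its own highest class, mean of 6 libraries. Most inner arm heavy chains and central apparatus genes are brightest in the spermatocyte classes, and most tektins at steps 4-5 of round spermatids. In IPac/eDip spermatocytes the inner arm heavy chains had a median of 94.4% of their highest level.

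Among outer arm heavy chains, the sperm forms stood far above the forms of ciliated tissues. Dnah8, a heavy chain of the sperm tail outer arm, was at 180 ± 32.5 CPM in preleptotene spermatocytes. In the leptotene to early pachytene class it was at 3807, 3856 and 3896 CPM in the NONO libraries and 3732, 3761 and 3963 CPM in the deltaER libraries. The genotypes overlap fully at this level, which was the highest of any dynein gene in the set. Dnah8 was at 1527 ± 94.3 CPM in step 3 and 403 ± 51.1 CPM at steps 4-5. Dnah17, its partner in sperm outer arms, went from 29.8 ± 2.61 CPM in preleptotene cells to 644 ± 60.4 CPM in the next class and 750 ± 60.7 CPM in IPac/eDip spermatocytes.

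Dnah5, Dnah9 and Dnah11, the outer arm heavy chains of airway and other motile cilia, were the lowest of the heavy chains. Dnah9 and Dnah5 were highest at steps 4-5, with 26.9 ± 3.33 and 21.0 ± 4.53 CPM. Dnah11 was the 1 member at or above 10 CPM whose highest germ cell class was undifferentiated spermatogonia, where it was at 18.8, 13 and 12.8 CPM in the NONO libraries and 15.2, 21.9 and 17.4 CPM in the deltaER libraries. It was at 4.51 ± 1.17 CPM at steps 4-5 and lower elsewhere.

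Inner arm and other heavy chains came early as a group. Their median member was at 85.9% of its highest level in the leptotene to early pachytene class, 94.4% in the next and 21.1% at steps 4-5. Dnah14 was highest of them, at 1030, 1093 and 958 CPM (NONO) and 918, 945 and 1107 CPM (deltaER) in IPac/eDip spermatocytes. Dnah7c followed with 919 ± 135 CPM in the leptotene to early pachytene class and Dnah12 with 644 ± 35.3 CPM in IPac/eDip. Dnah7a, Dnah7b and Dnah7c are near-identical copies, so the authors' counting could have split or dropped their reads and their separate levels are uncertain.

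Dnah3 was the exception in onset among the inner arm and other heavy chains. It was at 3.42 ± 0.911 CPM in IPac/eDip spermatocytes, 12.1 ± 1.35 CPM in the step 1-2 class, 224 ± 26.8 CPM in step 3 and 457 ± 51.2 CPM at steps 4-5. At steps 4-5 its libraries were at 498, 510 and 409 CPM (NONO) and 413, 411 and 503 CPM (deltaER), with TA, TB and TF above TC, TD and TE. Of the 10 inner arm and other heavy chains it was the 1 with an onset in spermatids.

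The intermediate chains Dnaic1 and Dnaic2, which anchor the outer arm to the doublet, shared a peak but not an onset. Dnaic1 was at 178 ± 10.4 CPM in the leptotene to early pachytene class, where Dnaic2 was at 10.6 ± 0.996 CPM. In the step 1-2 class both were at their highest, 258 ± 11.6 CPM for Dnaic1 and 257 ± 6.31 CPM for Dnaic2. At steps 4-5 Dnaic1 was still at 139 ± 8.23 CPM and Dnaic2 at 20.5 ± 1.90 CPM.

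Radial spoke genes held the largest single member. Rsph1, a spoke head protein, was at 665 ± 109 CPM in preleptotene cells, 3431 ± 359 CPM in the next class and 4163 ± 260 CPM in the step 1-2 class. The libraries at that peak were at 3963, 4039 and 4427 CPM (NONO) and 4403, 4336 and 3810 CPM (deltaER), with the genotypes overlapping and TC, TD and TE above TA, TB and TF. Rsph6a, the testis form of the spoke head, reached 780 ± 31.0 CPM there. Rsph4a, the form of airway cilia, was at most 5.86 ± 3.68 CPM in a germ cell class and was the member that stayed under 10 CPM. Rsph3a, a spoke stalk gene, was highest in IPac/eDip with 407 ± 33.6 CPM, and its near-copy Rsph3b with 312 ± 8.37 CPM, so reads of this pair could have been shared or lost.

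The 3 genes of the nexin-dynein regulatory complex kept a long plateau. Drc1, part of its base plate, was at 164 ± 12 CPM in the leptotene to early pachytene class and between 297 and 337 CPM from IPac/eDip through step 3. Drc3 and Drc7 reached 214 ± 8.43 and 195 ± 9.27 CPM.

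Tektins were the latest group and came in a sequence. Their median member was at 6.8% of its highest level in the leptotene to early pachytene class, 24.1% in the next, 48.6% in the step 1-2 class, 79.4% in step 3 and 100% at steps 4-5. Tekt1 was at 482 ± 14.6 CPM in the leptotene to early pachytene class and 1470 ± 65.7 CPM at steps 4-5. Tekt3 had its onset in IPac/eDip with 230 ± 7.11 CPM, and at its peak in step 3 it was at 431, 430 and 434 CPM (NONO) and 429, 431 and 430 CPM (deltaER), the tightest agreement of libraries among the tektins.

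Tekt4, a tektin of the sperm tail, was at 199 ± 18.6 CPM in IPac/eDip, just under 25% of its highest level, 401 ± 6.41 CPM in the step 1-2 class and 826 ± 12.4 CPM at steps 4-5. Because it lay so near the onset threshold, 2 of 6 libraries taken alone gave it the same onset class. Tekt2 followed in step 3 with 272 ± 15.4 CPM and reached 508 ± 18.6 CPM at steps 4-5. Tekt5 was last. It was at 22.2 ± 1.19 CPM in step 3 and 109 ± 7.14 CPM at steps 4-5, then at 530, 538 and 505 CPM (NONO) and 502, 507 and 535 CPM (deltaER) at steps 5-6, and at 6.35 ± 0.403 CPM at steps 7-8. In every library Tekt5 was higher at steps 5-6 than in any other germ cell class.

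**Figure D2:**
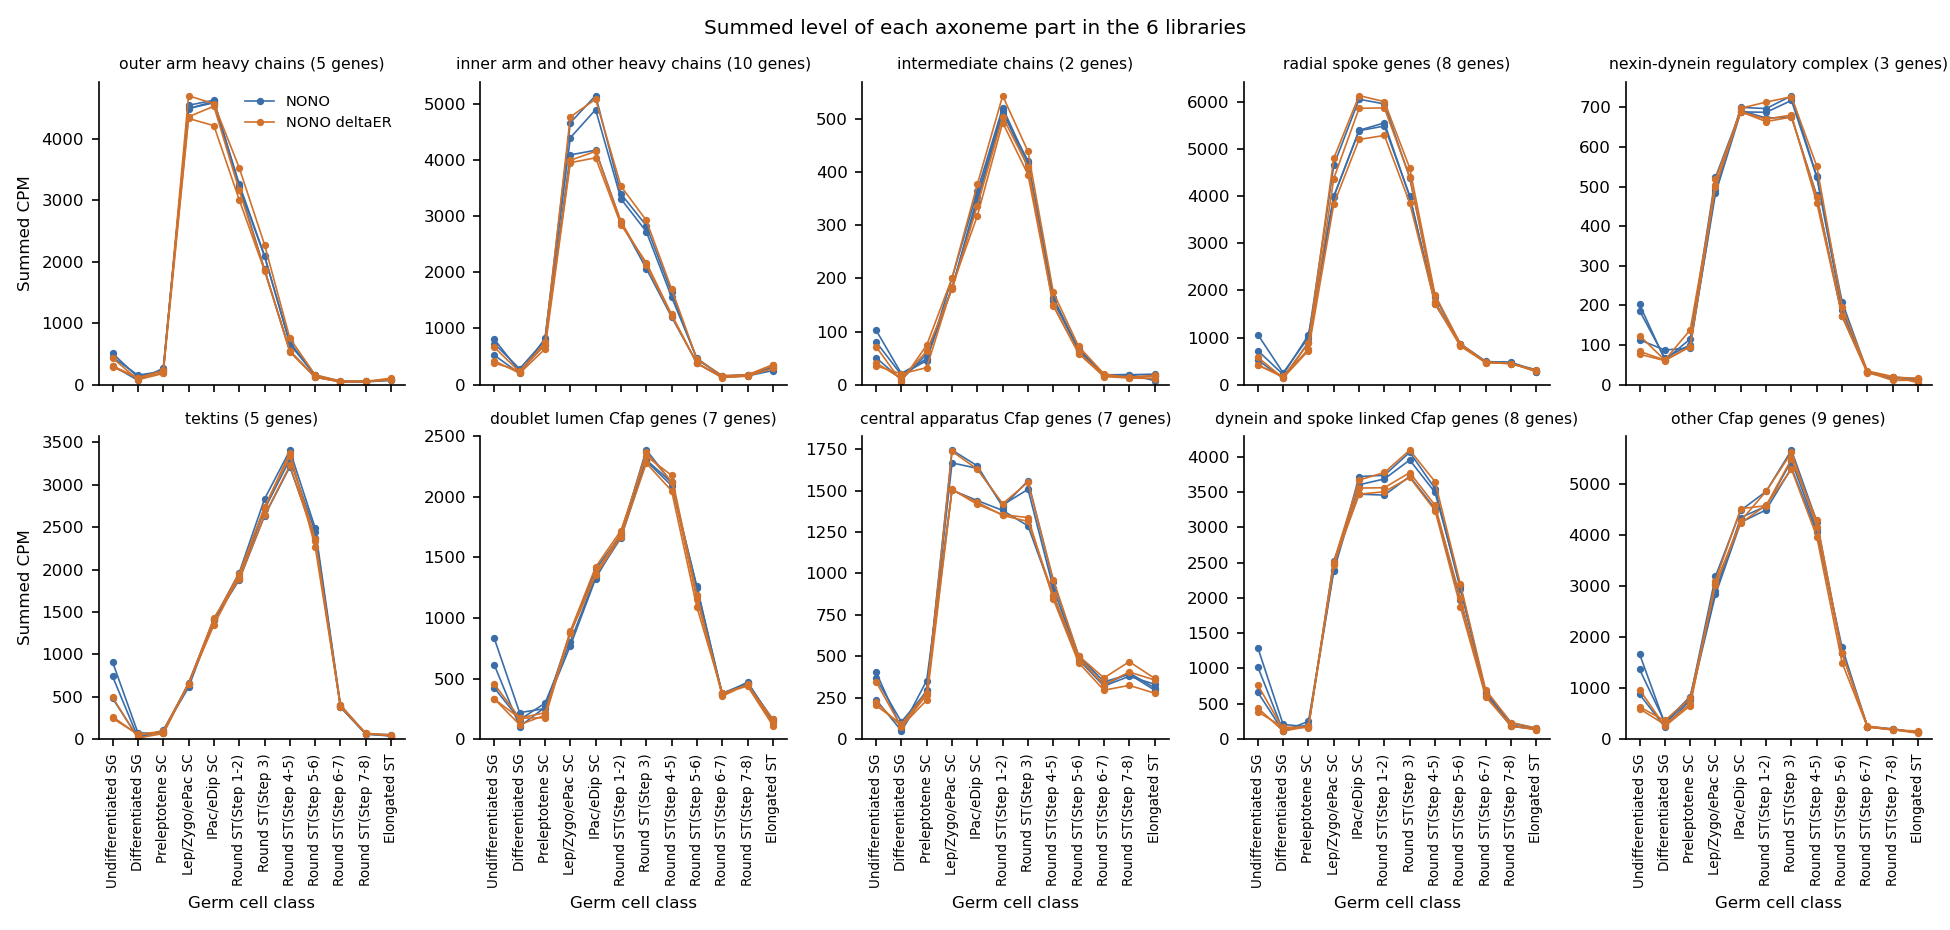
Summed CPM (vertical axis) of each of 10 axoneme parts in the 12 germ cell classes (horizontal axis), 1 line per library, NONO blue and NONO deltaER orange. Lines of both genotypes run together from the leptotene class on, tektins peak at steps 4-5 and heavy chains in the spermatocyte classes, and the lines of the inner arm heavy chains fall into 2 bundles that each hold both genotypes.

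Cfap genes were split by what their products are known for, and the splits differed in time. Doublet lumen genes, whose products line the inside of the doublet microtubules, were late: their median member was at 24.2% of its highest level in the leptotene to early pachytene class and 100% in step 3. Cfap45 went from 186 ± 14.3 CPM there to 907 ± 78.3 CPM at steps 4-5, Cfap53 peaked in step 3 with 508 ± 10.8 CPM, Cfap20 in the step 1-2 class with 390 ± 20.1 CPM and Cfap161 in step 3 with 229 ± 20.5 CPM. Cfap126 came later than the other doublet lumen genes. It had its onset in step 3 with 222 ± 39.3 CPM, was highest at steps 7-8 with 440 ± 13 CPM and was at 126 ± 18.4 CPM in elongated spermatids.

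Central apparatus Cfap genes were early, with a median of 94.4% of the highest level in the leptotene to early pachytene class. Cfap65 was at 506 CPM there and 536 ± 32.4 CPM in IPac/eDip, Cfap46 was highest in the leptotene to early pachytene class with 301 ± 30.7 CPM, and Cfap74 and Cfap54 with 233 ± 36.1 and 233 ± 14 CPM. Cfap69, a central pair gene of sperm, peaked later than the others of its group. It was at 293 ± 12.5 CPM in that class, 497 ± 11.7 CPM at steps 4-5 and 261, 257 and 291 CPM (NONO) and 224, 320 and 310 CPM (deltaER) in elongated spermatids. There it kept 55.7% of its highest level, where the median member kept 2.0%. Cfap47 and Cfap221 were highest in step 3, where the median of the central apparatus genes was 81.2% of the highest level.

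Genes tied to dynein arms and spokes differed in their highest class, from IPac/eDip to steps 4-5. Their median member was at 55.3% of its highest level in the leptotene to early pachytene class, 86.7% in IPac/eDip and 91.7% in step 3. Cfap206, which docks radial spokes, was at 927 ± 26.9 CPM in the leptotene to early pachytene class and 2080, 2072 and 1984 CPM (NONO) and 1950, 2040 and 2139 CPM (deltaER) at steps 4-5. Cfap43, a tether of an inner arm, was highest in the step 1-2 class with 597 ± 31.3 CPM, and Cfap70 and Cfap57 in IPac/eDip with 581 ± 9.85 and 473 ± 11.3 CPM. Cfap100, an inner arm regulator, came late. It was at 0.737 ± 0.298 CPM in the step 1-2 class, 52.7 ± 9.10 CPM in step 3 and 348, 343 and 294 CPM (NONO) and 315, 297 and 332 CPM (deltaER) at steps 4-5.

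Among the remaining Cfap genes, Cfap36 reached 2300 ± 116 CPM in step 3 and Cfap97 1410 ± 41.8 CPM in the step 1-2 class. Cfap58, a gene of sperm tail assembly, was at 222 ± 5.21 CPM in the step 1-2 class, 678 ± 28.3 CPM in step 3 and 1034 ± 43.4 CPM at steps 4-5. Cfap299 peaked in IPac/eDip with 602 ± 53.3 CPM, and Cfap298, which helps assemble dynein arms, in the step 1-2 class with 584 ± 39.3 CPM. The RefSeq window of Cfap298 held the 1 X-box without a mismatch among the members.

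The 15 members with an onset before leptotene were mostly genes of low level. In undifferentiated spermatogonia these were Cfap20, Cfap77, Cfap300, Cfap410, Dnah5, Dnah10, Dnah11 and Rsph9, in differentiated spermatogonia Drc3 and Rsph10b, and in preleptotene spermatocytes Cfap47, Cfap69, Dnah7b, Dnah9 and Rsph3b. Cfap77, a doublet lumen gene, had a gap in its course: it was at 54.7 ± 6.16 CPM in undifferentiated spermatogonia, 3.16 ± 0.731 CPM in the leptotene to early pachytene class and 87.1 ± 3.28 CPM in step 3. Cfap47, a central pair gene, was at 42.7 ± 8.26 CPM in preleptotene cells, 2.99 ± 1.07 CPM in the next class and 75.6 ± 7.68 CPM in step 3. Rsph9, a spoke head gene, was at 34.0 ± 12.4 CPM in undifferentiated spermatogonia and at 74.1 ± 6.53 CPM in step 3. Dnah10 was at 77.1 CPM in undifferentiated spermatogonia and 283 CPM in step 3, and Cfap20 at 129 and 390 CPM in the class of onset and the highest class. Cfap300 and Cfap410 were at 24.2 and 13.6 CPM at onset and highest in the leptotene to early pachytene class, with 67.0 and 50.2 CPM. Drc3 was at 58.1 CPM and Rsph10b at 10.7 CPM in differentiated spermatogonia, and Rsph10b was highest at steps 6-7 with 41.8 CPM. Dnah7b was at 191 CPM in preleptotene cells and 640 CPM in the next class, and Rsph3b at 98.6 CPM at onset. Onset was least certain for Rsph10b and Cfap69, where 1 of 6 libraries taken alone gave the same class.

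The members not described one by one (Cfap44, Cfap52, Cfap61, Cfap73, Cfap99, Cfap157, Cfap221, Dnah1, Dnah6, Dnah7a and Rsph14) had highest levels from 44.0 CPM for Rsph14 to 542 CPM for Dnah7a. All but Cfap157 had their onset in the leptotene to early pachytene class. Cfap157 began in the step 1-2 class with 68.8 CPM and reached 204 CPM at steps 4-5.

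RNA of later germ cells was counted in the early and the somatic classes too, and these values stand beside the levels of the members there. In undifferentiated spermatogonia the summed late spermatocyte markers were at 13.4% of their highest class and the summed round spermatid markers at 10.6%, and the median member was at 15.4%. In differentiated spermatogonia the values were 4.61%, 1.19% and 2.90%. In Sertoli, Leydig, myoid, macrophage and unknown cells the median member was at 12.2 to 22.9% of its highest germ cell class and both marker sums at 7.53 to 19.7%. The part of such RNA in the members' levels was not tested.

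Members whose share of their own highest class was more than 3 times both marker shares in at least 5 of 6 libraries, and at least 5 CPM, are listed here. In undifferentiated spermatogonia these were Cfap77 and Rsph9. Dnah11 stood above the marker shares there as well, since that class was its highest in 6 of 6 libraries (12.8 to 21.9 CPM). In differentiated spermatogonia the members listed were Cfap20, Drc3, Rsph3b and Rsph9. In Leydig cells it was Dnah9, at 68.8, 108 and 67.2 CPM (NONO) and 69.6, 42.5 and 60.5 CPM (deltaER), which was 260% of its highest germ cell class. Dnah9 was also listed in Sertoli cells with 21.0 ± 5.34 CPM, as was Cfap410, a basal body gene, with 32.9 ± 7.10 CPM. In myoid, macrophage, unknown and preleptotene cells no member met this rule.

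Comparison of the genotypes asked whether the deltaER alteration changes axoneme expression at any stage. No member was called in any of the 17 classes (edgeR, adjusted p under 0.05), where 0.0271% of the genes tested were called in undifferentiated spermatogonia, 0.327% in preleptotene spermatocytes and 0.0% in each other class. At an unadjusted p under 0.05 edgeR gave 22 members in undifferentiated spermatogonia and 8 in preleptotene spermatocytes. It gave 0 in differentiated spermatogonia (6.33% of all genes), the leptotene to early pachytene class (3.53%), IPac/eDip (3.42%), step 1-2 (2.35%), step 3 (2.94%) and macrophages (4.57%). It gave 2 at steps 4-5 (2.46%), 1 at steps 5-6 (2.94%), 1 at steps 6-7 (3.24%), 4 at steps 7-8 (3.12%) and 2 in elongated spermatids (5.93%). In Sertoli cells it gave 5 (4.83%), in Leydig cells 1 (3.32%), in myoid cells 2 (7.85%) and in unknown cells 3 (2.86%). DESeq2 called 11 of 55 members with an adjusted p lower in undifferentiated spermatogonia, where it called 2.38% of 9193 genes lower. In each of the other 16 classes DESeq2 called no member and 0 to 2 genes in all.

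From the leptotene to early pachytene class through steps 6-7, the members' median log2 fold change (deltaER over NONO) lay between −0.06 and 0.01. The median standard error per gene was 0.08 to 0.13. These classes hold the highest level of most members, but at steps 6-7 the median member was at 3.1% of its highest level. At most 1 member per class differed by more than 0.5. That was Dnah5 in the leptotene to early pachytene class (−0.72), where it was at 0.70 to 2.38 CPM, and Dnah11 at steps 4-5 (−0.51), at 3.16 to 6.03 CPM. At steps 5-6, 49 of 63 tested members were below 0 (77.8%, against 46.8% of all genes), by a median of −0.06. In elongated spermatids 21 of 29 were above 0, with a median of 0.11 against 0.01 over all genes.

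Onset and peak were also set by genotype. With 3 libraries each, 56 of 63 members had the same onset class and 59 the same highest class. Cfap157, Cfap52, Cfap69, Dnah5 and Rsph10b had a later onset in deltaER, and Cfap161 and Dnah9 an earlier one. For Cfap157, Cfap52, Cfap69 and Dnah5 the NONO onset was in undifferentiated spermatogonia, the class with the largest share of members below 0 among germ cells.

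In undifferentiated spermatogonia 54 of 60 tested members were below 0, with a median of −0.64 against 0.01 over all 11064 genes tested. The members summed to 4195, 6271 and 7793 CPM in the NONO libraries TA, TB and TC and 3120, 2987 and 4900 CPM in the deltaER libraries TD, TE and TF. The groups overlap, since TF lies above TA. The 22 members at an unadjusted p under 0.05 compare with 16.2% of all genes.

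The lowest p belonged to Drc1, at 57.9, 94.5 and 81.2 CPM in NONO and 30.4, 26.9 and 47.3 CPM in deltaER. It had 32 to 80 UMI per library, and its groups did not overlap. Its log2 fold change was −1.19 ± 0.25 (SE) with an adjusted p of 0.0849 (edgeR), short of the threshold. Tekt4 was at 127, 189 and 228 against 54.2, 50.5 and 101 CPM (−1.44 ± 0.31, adjusted p 0.107 by edgeR). Cfap58 was at 156, 218 and 284 against 73.8, 69.9 and 126 CPM (−1.33 ± 0.29, adjusted p 0.107 by edgeR).

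Cfap45 (−1.20 ± 0.30, adjusted p 0.129) and Cfap52 (−1.32 ± 0.38, adjusted p 0.13, both by edgeR) came next. With Cfap206 and Cfap36 these made 7 members whose deltaER libraries all lay below every NONO library, as 7.4% of all genes did. No member had its deltaER libraries all above, as 14.5% of all genes had. All 7 doublet lumen genes, all 8 dynein and spoke linked genes and 4 of 5 tektins were below 0, with group medians of −0.88, −0.78 and −1.13. The outer arm heavy chains had a median of −0.31 over 3 tested genes and the central apparatus genes −0.25.

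Genes of other tail parts and markers of later germ cells moved with this result. Of the other axoneme genes 47 of 50 tested were below 0 (median −0.73) and of the outer dense fibre and fibrous sheath genes 12 of 12 (median −0.81), with none called by edgeR in either list. The 4 late spermatocyte markers summed to 627 to 1044 CPM in NONO and 432 to 656 CPM in deltaER, which overlap. The 6 round spermatid markers summed to 239 to 435 and 120 to 207 CPM, without overlap. None of these 10 markers was at 0. Elongating spermatid markers overlapped (4374 to 8991 against 5446 to 7838 CPM), and the 4 markers of undifferentiated spermatogonia were at 550 to 571 against 608 to 891 CPM, without overlap and with none called. Markers of multiciliated cells, such as line the efferent ducts, summed to 158 to 301 against 81.7 to 159 CPM. The part of these in the result was not tested.

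The result also depended on the library set. Within TA, TB and TF the median log2 ratio of the members (deltaER over NONO) was 0.05 with 24 of 60 below 0, while within TC, TD and TE it was −1.25 with 57 of 60 below 0. With the set as a covariate edgeR called no member, and the median was −0.62. Without library TA edgeR called 15 of 61 tested members lower, as it did 4.8% of all 11524 genes. Without TF it called 17 of 62 lower, and 4.39% of all 11512 genes. Without TB, TC, TD or TE edgeR called no member and no other gene. The median without 1 library ranged from −0.92 (without TF) to −0.38 (without TC).

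**Figure D3:**
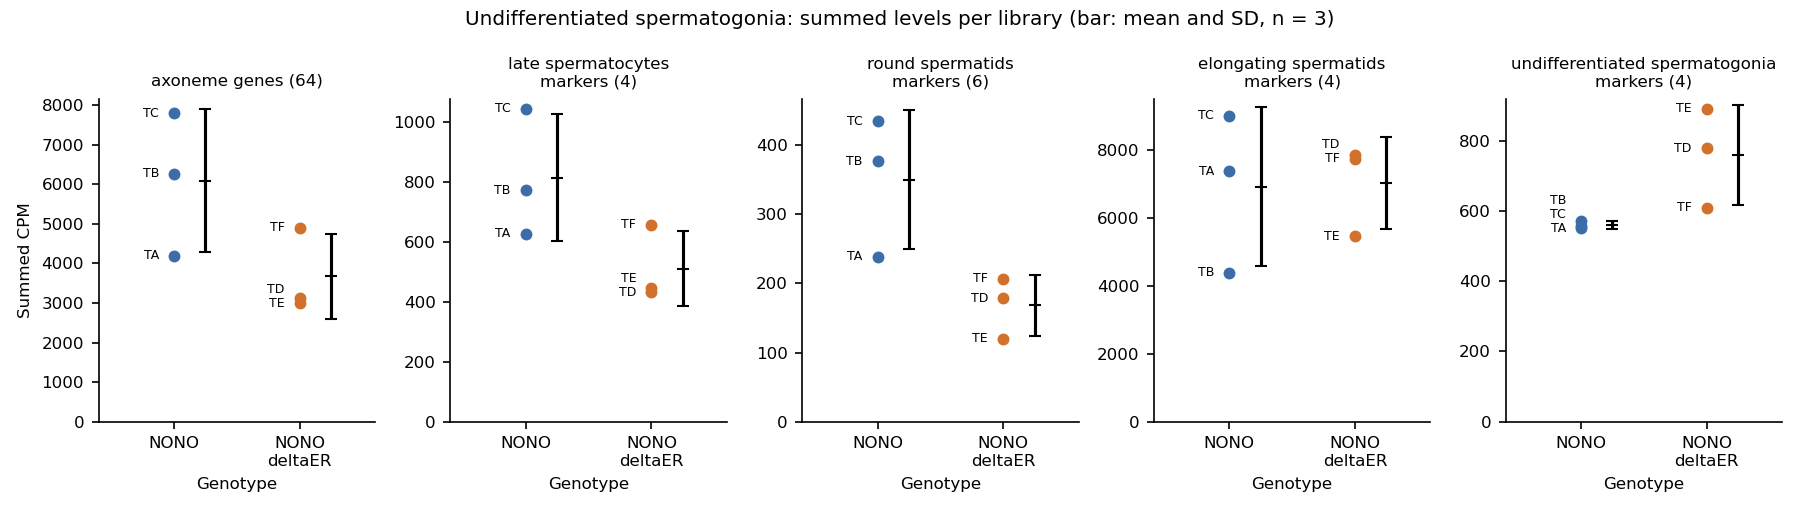
Summed CPM per library in undifferentiated spermatogonia for the 64 axoneme genes and 4 marker lists, with NONO libraries in blue, NONO deltaER libraries in orange and bars for the mean and SD (n = 3). The axoneme genes and the late spermatocyte markers are highest in TC and lowest in TD and TE, and the round spermatid markers of deltaER (120 to 207 CPM) lie below all NONO libraries.

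In preleptotene spermatocytes 27 members could be tested, of which 20 were below 0 with a median of −0.19. The members summed to 3794, 3939 and 3752 CPM in NONO and 3258, 3305 and 3252 CPM in deltaER, without overlap. Rsph1 was at 662, 793 and 764 against 694, 534 and 544 CPM (−0.35 ± 0.12, adjusted p 0.212 by edgeR), with TD above TA. Cfap36, Cfap20, Rsph3b and Dnah8 followed with −0.37 ± 0.13, −0.45 ± 0.17, −0.57 ± 0.22 and −0.40 ± 0.17 (adjusted p 0.213 to 0.317 by edgeR). Cfap20 was at 241, 194 and 203 against 159, 131 and 191 CPM, and Rsph3b at 104, 133 and 115 against 60.1, 92.7 and 87.5 CPM, both without overlap. Cfap97 went the other way, with 148, 120 and 106 against 164, 211 and 159 CPM.

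Altogether 6 of the 27 members were lower without overlap, as 6.41% of all genes were, and 1 was higher, as 10.3% of all genes were. The 8 at an unadjusted p under 0.05 compare with 11.7% of all genes. In differentiated spermatogonia none of the 9 tested members was lower or higher without overlap, where 4.51% and 8.06% of all genes were. In preleptotene spermatocytes the late spermatocyte markers summed to 1003 to 1148 CPM in NONO and 777 to 838 CPM in deltaER. Of the 3 tested there, 1, Hspa2, was called lower (−0.51 ± 0.11, adjusted p 0.0222 by edgeR). Its part in the members' values was not tested. Within the sets the medians of the members in preleptotene spermatocytes were −0.24 (TF against TA and TB) and −0.13 (TD and TE against TC).

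**Figure D4:**
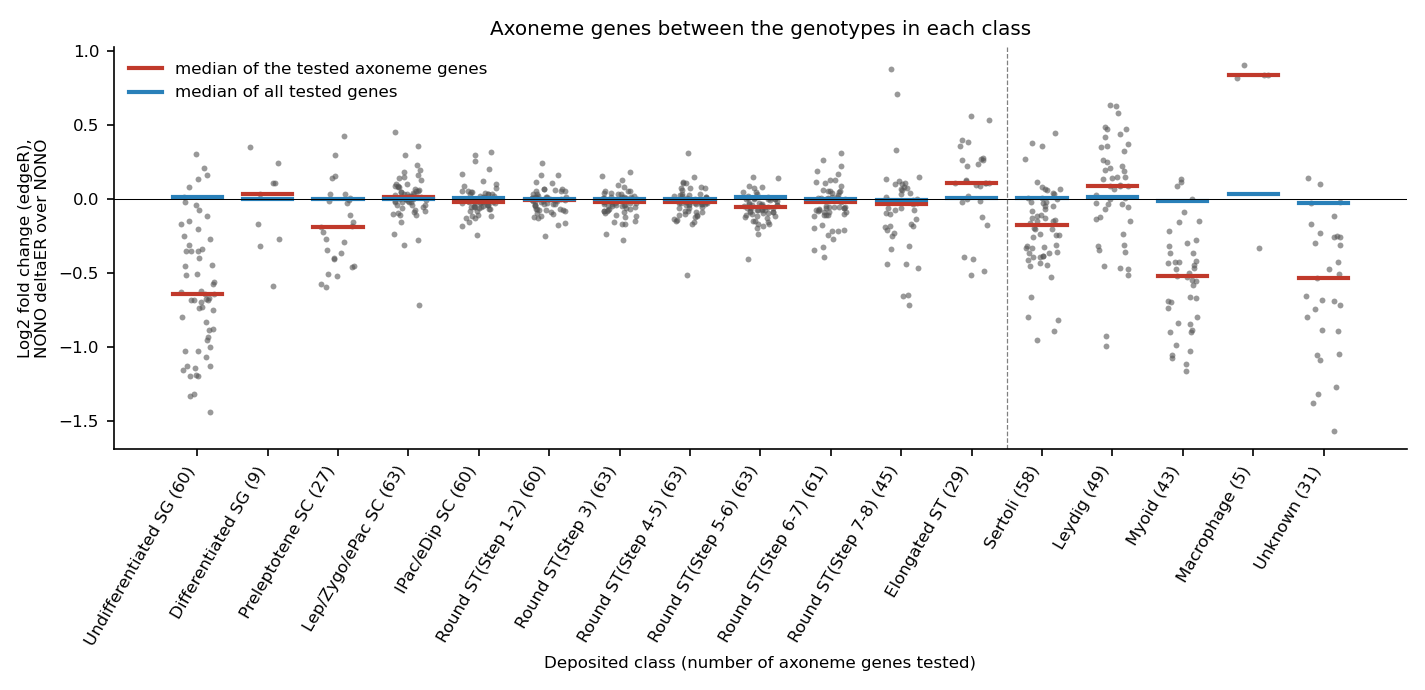
Log2 fold change of each tested axoneme gene (points, vertical axis) between NONO deltaER and NONO in the 17 deposited classes (horizontal axis, number tested in brackets), with the median of these genes in red and of all tested genes in blue. Points cluster at 0 from the leptotene class to steps 6-7, and the red line lies at −0.64 in undifferentiated spermatogonia.

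In some somatic classes the members were also mostly below 0. This held for 40 of 43 tested in myoid cells (median −0.52), 29 of 31 in unknown cells (−0.53) and 45 of 58 in Sertoli cells (−0.18). It did not hold in Leydig cells (20 of 49) or macrophages (1 of 5). In myoid, unknown and Sertoli cells 50.7, 52.3 and 49.0% of all genes were below 0. Changes beyond 0.5 in either direction were seen in 38.6, 29.4 and 11.3% of all genes there, and in 51.2, 54.8 and 10.3% of the members. None was called by edgeR in these classes. In myoid cells the members summed to 11975, 5259 and 15533 CPM in NONO and 5711, 1999 and 9988 CPM in deltaER, from 21 to 129 cells per library. The late spermatocyte markers stood at 15.4 to 31.5% of their highest class in NONO and 9.70 to 18.7% in deltaER myoid cells. Within TA, TB and TF the median ratio in myoid cells was 0.21 and within TC, TD and TE −1.79. The part of later germ cell RNA in these values was not tested.

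The response itself was compared between each of the 11 pairs of neighbouring germ cell classes with limma. It called 0 members and 0 of 2739 to 14172 genes in any pair, and the lowest adjusted p for a member was 0.535. At an unadjusted p under 0.05 limma gave 2 of 9 members from undifferentiated to differentiated spermatogonia (7.03% of all genes), 2 of 9 in the next pair (4.15%) and 4 of 27 from preleptotene to leptotene (8.33%). In the following pairs up to step 4-5 it gave 1 of 60 (4.53%), 0 of 60 (4.97%), 0 of 60 (5.14%) and 1 of 62 (5.03%). In the last pairs it gave 1 of 63 (4.95%), 3 of 61 (4.82%), 4 of 45 (4.83%) and 2 of 29 (6.06%). So the lower values in undifferentiated spermatogonia are not shown to differ from the values in differentiated spermatogonia, where 9 members could be tested and the median was 0.03.

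Some parts of the axoneme were counted at different levels in the 2 library sets. In step 3, all 3 Drc genes, 6 of 7 central apparatus Cfap genes and 5 of 8 dynein and spoke linked Cfap genes had TA, TB and TF all above TC, TD and TE, as 21.7% of all genes did. The same held for 29 of all 63 tested members. Dynein heavy chains had the largest median log2 difference of these groups in step 3, where 13 of 14 tested heavy chains were so ordered (92.9%), and at steps 4-5 it was 14 of 15 (93.3%, against 23.4%). In IPac/eDip the count was 9 of 13, where 14.3% of all genes did so, and in no germ cell class did a heavy chain have them all below. Dnah10, an inner arm heavy chain, was at 348, 342 and 356 CPM in TA, TB and TF in step 3 and at 211, 224 and 220 CPM in TC, TD and TE. Dnah2, another, was at 588, 582 and 565 against 384, 391 and 410 CPM in IPac/eDip.

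Other parts did not share this order. In step 3, 4 of 8 radial spoke genes had TA, TB and TF all below the other libraries, as 14.1% of all genes did, and none had them all above. In that class no tektin and neither intermediate chain had them all above. The median log2 ratio of TA, TB and TF over the other libraries in step 3 was 0.39 for heavy chains, −0.14 for radial spoke genes and 0.03 for all genes. Each set holds libraries of both genotypes, and the genotype medians of the members in step 3 were 0.01 within both sets. The sets were taken from the mitochondrial share of UMI, and the labels name no other difference between them.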

How the data were processed

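Single-cell libraries of mouse testis were counted with Cell Ranger 2.1.1 against mm10, per the submitters' processing notes. The authors deposited 1 matrix of whole-number UMI counts with no normalization (25771 genes, 46495 cells) and a cell table with library, genotype code, classes and the percent of mitochondrial UMI. All deposited cells had at least 500 UMI and at most 5.00% mitochondrial UMI. Doublets were not called again. Raw counts were summed per library and deposited class. CPM divides by all UMI of that sum.

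Genotypes were compared in each class with edgeR 4.0.16 (robust quasi-likelihood, TMM, filterByExpr, R 4.3.3), with Benjamini-Hochberg adjustment over all genes tested in the class and a threshold of 0.05. A standard error is the fold change divided by the root of F. DESeq2 1.42.0 was an alternative, and limma 3.58.1 compared responses of neighbouring classes. The models were tested on simulated data. Alternatives covered normalization, filters, cells and libraries left out, a covariate for the library set, and thresholds of onset.

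The members and lists were chosen with earlier results of these data known. Members are named by highest level in their group (3, or 5 in large Cfap groups), lowest p in undifferentiated spermatogonia and preleptotene spermatocytes, early onset, or a level above marker RNA. The rule first set for the last item used a marker sum that elongating spermatid RNA dominated and listed only Rsph4a in undifferentiated spermatogonia. The rule used instead, the values and examples for library sets (Dnah10, Dnah2), Cfap97 in preleptotene cells and the mismatch counts of the X-box were chosen after seeing the data.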

Additional observations from a re-analysis of the deposited data

How the results depend on the processing

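In undifferentiated spermatogonia the count of members called was 0 in the chosen setting, with DESeq2 size factors, with cells of at least 1000 UMI and with the library set as covariate. It was 25 without a filter on low counts (3.02% of 21974 genes called lower), 11 with DESeq2 (2.38% of 9193) and 7 without the 5% of cells with the most UMI (1.49% of 10356), all lower in deltaER, and 0 to 17 with each library left out. Cfap36, Cfap45, Cfap53, Drc1 and Tekt4 were called in each of the 5 settings that called any. In preleptotene spermatocytes the count was 0 in every setting, and in the other 15 classes 0 to 1 with a library left out. That 1 member was called lower in Sertoli cells without TF, of 58 tested, as 0.0848% of 9439 genes were. The median fold change of preleptotene spermatocytes was −0.24 without a filter, −0.15 with cells of at least 1000 UMI, −0.32 without the cells with the most UMI, −0.16 with the covariate and −0.28 to −0.20 with each library left out. In elongated spermatids it was 0.18 without the cells with the most UMI and 0.19 with the covariate. With each library left out it was −0.147 to 0.0698 in differentiated spermatogonia and −0.00198 to 0.0394 in the leptotene to early pachytene class. The cause of these shifts was not tested.

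Onset counts depend on the threshold. At 10% of the highest class 55 members began before leptotene, 7 in spermatocytes, 0 in the step 1-2 class and 1 in spermatids, and 13 of 63 kept their onset class. At 50% the counts were 5 before leptotene and 11 in spermatids. With totals scaled by TMM over the germ cell classes they were 3, 46, 1 and 12, and 45 of 62 members kept their onset class and 40 their highest class. With NONO libraries alone 1 member began in the step 1-2 class. With each library left out, 11 to 15 members began before leptotene, 40 to 42 in spermatocytes and 6 to 8 in spermatids.

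No paired analysis was possible because the cell table ties no library to a replicate number. Fewer than 30 cells of myoid type in 1 library and low UMI in early classes limit what can be seen there.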
